A study of Rattus norvegicus with 12 samples.

Results

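Kupffer cells, the resident macrophages of the liver, were read in the immune-enriched libraries of the rat liver atlas, 1 library from a Dark Agouti (DA) and 1 from a Lewis (LEW) rat. A barcode was kept with at least 1000 unique molecular identifiers (UMIs) and with at most 50% of its UMIs in mitochondrial (Mt-) genes. Of the kept barcodes, members were those with at least 10 UMIs of Cd5l, Clec4f, Vsig4, C1qa, C1qb and C1qc together, making up at least 0.3% of the barcode's UMIs. This gave 311 members of 3840 kept barcodes, or 8.10%, with 115 of 1163 (9.89%) in DA and 196 of 2677 (7.32%) in LEW. All cell and nucleus libraries of the study together held 39401 kept barcodes. The members were thus chosen by the counts of these 6 genes, so their levels and the distance of any gene from the other kept barcodes of the same libraries are given as descriptions, with no test. The lowest member had 10 rule UMIs and 0.306% of its UMIs in DA, and 10 and 0.369% in LEW. Just outside, 8 DA and 4 LEW barcodes met the percentage with at most 9 UMIs, and 3 DA and 11 LEW barcodes met the 10 UMIs with at most 0.231% and 0.289%.

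The study profiled the livers of healthy male DA and LEW rats as 4 libraries of total liver homogenate (TLH) cells and 4 of nuclei, 2 rats of each strain in each, beside the immune-enriched pair, and added sections of Wistar liver that were not used here. All rats were wild-type as far as the labels say, with no treatment or engineered allele named for any group. The design text gives an age of 8 to 10 weeks, and the methods of the study give an older one. The immune-enriched suspensions came from collagenase-dissociated liver, with parenchymal cells removed by differential centrifugation, further washing and depletion of red blood cells. They thus hold the cells that survived this handling and are not a sort. They were sequenced with version 3 chemistry, as were the nuclei, and the TLH cells with version 2. The nuclei carry the same animal numbers as the TLH cells, although the study calls them additional rats, so these 2 kinds of library were not treated as independent of each other. With 1 immune-enriched library a strain, a difference between the strains cannot be told apart from a difference between the rats, the dissociations or the libraries.

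In DA 48255870 UMIs were counted over 4690 barcodes, and in LEW 60005133 over 6815. The limit on UMIs removed 532 and 1736 barcodes, and the limit on mitochondrial share a further 2995 and 2402. Depth was higher in the members than around them. A DA member had a median of 9149 UMIs (quartiles 2499 and 12617, highest 27535) and 2329 genes, and a LEW member 13813 UMIs (8994 and 18453, highest 58993) and 3106 genes. The other kept barcodes had medians of 3968 and 4928 UMIs. In the TLH libraries the cells that passed the same rule had medians of 2083 to 3644 UMIs, and in the nuclei 1171 to 1702. The members' mitochondrial share had a median of 14.7% in DA and 9.61% in LEW. Levels are given as CPM, the UMIs of a gene scaled to 1000000 UMIs of all members of a library together, 1011149 in DA and 2934857 in LEW. CPM of 3' tags compare a gene between groups and are not per transcript length, so genes are not ranked against each other by level. Intervals in brackets are exact 95% intervals that cover counting error only.

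Kupffer cells line the sinusoids, where they take up particles, bacteria and aged red blood cells from portal blood. They depend on CSF1 receptor signalling, on the lineage factor PU.1 (Spi1) and on factors such as LXR-alpha (Nr1h3) and ID3 that hold their tissue identity. Their uptake runs through C-type lectins, scavenger receptors and complement receptors, their cargo through a large lysosomal system, and the iron of degraded haem through haem oxygenase, ferritin and the iron exporter ferroportin. Liver macrophages also include capsular and monocyte-derived cells with more MHC class II, and these share C1q with Kupffer cells.

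Of the rule genes, 3 are receptors or secreted proteins typical of resident liver macrophages and 3 are the chains of complement C1q. Clec4f, a galactose-binding lectin of Kupffer cells, stood at 4336 CPM in DA and 5844 CPM in LEW members, against 1.72 and 4.99 CPM in the other kept barcodes. Cd5l, a secreted scavenger-receptor protein and LXR target, stood at 3869 and 5243 CPM, and Vsig4, the complement receptor for C3 fragments, at 2209 and 2689.7 CPM. The C1q chains stood at 9883 and 11421 CPM for C1qa, 7359 and 7219 CPM for C1qb, and 5836 and 6484 CPM for C1qc. The rule could thus be met by C1q alone, and the genes did not spread evenly: C1qa was counted in all 115 DA members and in all 196 LEW members, and Vsig4 in 82 (71.3%) and 176 (89.8%). The members spread from the limits up to 7.39% of their UMIs in the 6 genes in DA and 7.09% in LEW, around medians of 2.76% and 4.34%.

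**Figure D1:**
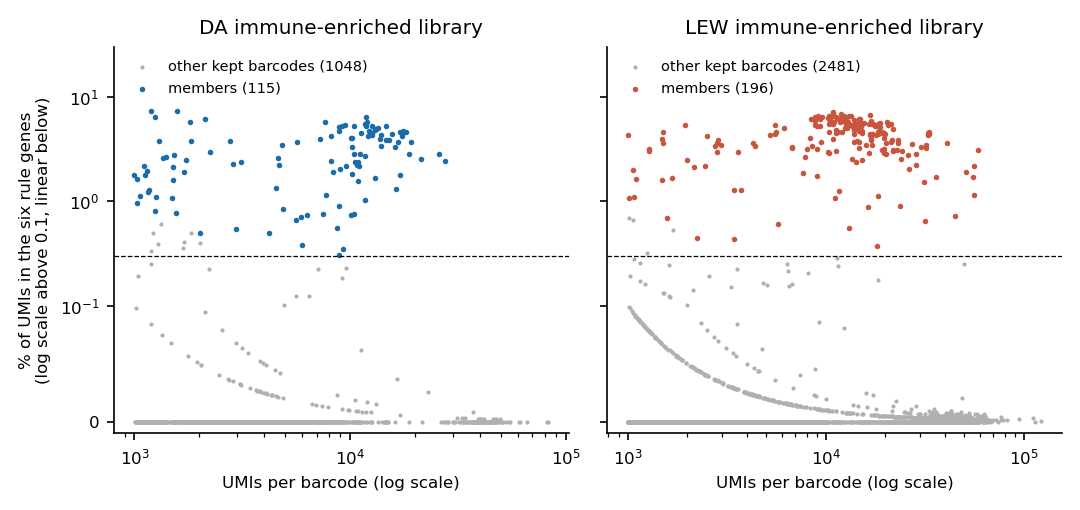
Each point is a kept barcode of the DA (left) or LEW (right) immune-enriched library, with its UMIs on a log axis and the percentage of them in the 6 rule genes on an axis that is linear near 0 and logarithmic above. Members lie above the dashed line at 0.3%, with medians of 2.76% in DA and 4.34% in LEW, and most other barcodes lie at or near 0.

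The promoters of the genes that set these cells apart are shown so that the regulatory sequence next to the counts can be read. RefSeq windows of the GRCr8 assembly, 250 bases before to 50 after the annotated start, were found for 6 of 7 genes looked up, the 6 rule genes and Marco. C1qc had no entry. Capitals mark, on either strand, the letters GAGGAA, which lie in sites bound by PU.1. GAGGAA or its reverse complement is in 27.6% of all 33469 windows. Each sequence is written 5′ to 3′ on the strand of its gene, at chr2:175088665-175088964 (plus strand), chr4:117696358-117696657, chrX:65179659-65179958 and chr13:34201206-34201505 (all minus strand).
Cd5l: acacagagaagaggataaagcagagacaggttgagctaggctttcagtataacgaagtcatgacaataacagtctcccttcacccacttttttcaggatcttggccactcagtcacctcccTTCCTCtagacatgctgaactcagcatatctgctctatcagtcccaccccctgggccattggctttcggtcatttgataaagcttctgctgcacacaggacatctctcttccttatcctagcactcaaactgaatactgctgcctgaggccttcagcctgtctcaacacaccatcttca
Clec4f: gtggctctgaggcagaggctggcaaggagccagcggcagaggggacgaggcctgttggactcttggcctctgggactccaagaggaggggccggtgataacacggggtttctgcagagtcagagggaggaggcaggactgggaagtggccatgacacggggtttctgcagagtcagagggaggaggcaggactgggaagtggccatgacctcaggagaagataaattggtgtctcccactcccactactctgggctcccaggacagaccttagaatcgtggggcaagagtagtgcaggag
Vsig4: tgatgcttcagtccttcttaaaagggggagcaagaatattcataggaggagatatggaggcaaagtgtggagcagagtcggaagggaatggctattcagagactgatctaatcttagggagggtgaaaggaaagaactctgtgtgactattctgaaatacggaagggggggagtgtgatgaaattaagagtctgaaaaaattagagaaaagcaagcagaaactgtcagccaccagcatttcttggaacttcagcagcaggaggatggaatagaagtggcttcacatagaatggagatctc
Marco: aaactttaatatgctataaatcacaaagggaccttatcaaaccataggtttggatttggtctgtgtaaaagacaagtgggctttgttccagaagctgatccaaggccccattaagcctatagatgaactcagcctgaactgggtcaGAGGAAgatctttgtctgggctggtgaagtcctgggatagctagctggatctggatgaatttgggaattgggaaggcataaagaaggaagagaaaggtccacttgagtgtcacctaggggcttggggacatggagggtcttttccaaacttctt
The Cd5l window holds TTCCTC, the reverse complement of GAGGAA, the Marco window holds GAGGAA, and the Clec4f and Vsig4 windows hold neither. Of the 2 windows not printed, that of C1qb holds 2 matches and that of C1qa 0. These are matches of letters in a short window and say nothing of binding.

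The members were not uniform in the Kupffer genes Cd5l, Clec4f and Vsig4. At least 10 UMIs of these 3 genes together were counted in 74 DA members (64.3%, interval 54.9% to 73.1%) and in 179 LEW members (91.3%, interval 86.5% to 94.9%). The remaining 41 DA and 17 LEW members passed mostly on C1q. Those 17 had a median of 1.06% of their UMIs in MHC class II genes, against 0.0414% for the 179. In DA the medians were 1.14% and 0.189%. In the 11 DA and 7 LEW members without a UMI of the 3 genes, Cd74, the MHC class II invariant chain, stood at 14094 and 7505 CPM and the lysozyme gene Lyz2 at 7545 and 6121 CPM, whereas in members with at least 10 UMIs Cd74 stood at 3424 and 804 CPM and Lyz2 at 354 and 42.4 CPM. The 18 members without the 3 genes also held no UMI of Marco. The name Kupffer cell therefore holds for the members with Cd5l, Clec4f and Vsig4, and the others are described here only as C1q-positive barcodes, whose MHC class II share ran from 0% to 13.6% in DA and from 0% to 9.94% in LEW. In the members with at least 10 UMIs of the 3 genes it ran from 0% to 10.1% and from 0% to 10.5%, so the ranges overlapped.

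The share of Kupffer gene-positive barcodes moved with depth as well as with the library. A member with at least 10 UMIs of the 3 genes had a median of 11046.5 UMIs in DA and 14334 in LEW, and one with 3 to 9 UMIs had 2121 and 1583. Those without any had 8903 in DA and 3741 in LEW, with medians of 79 and 48 C1q UMIs. Members with 3 to 9 UMIs of the 3 genes held Cd74 at 16072.5 CPM in DA and 7828 CPM in LEW. Whether the low counts came from depth or from another kind of cell was not tested. By the same limit of 10 UMIs, the TLH libraries held 38.6% and 70.0% of rule-passing cells in DA and 82.9% and 78.0% in LEW, where the lowest share fell in the library of lowest median depth.

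**Figure D2:**
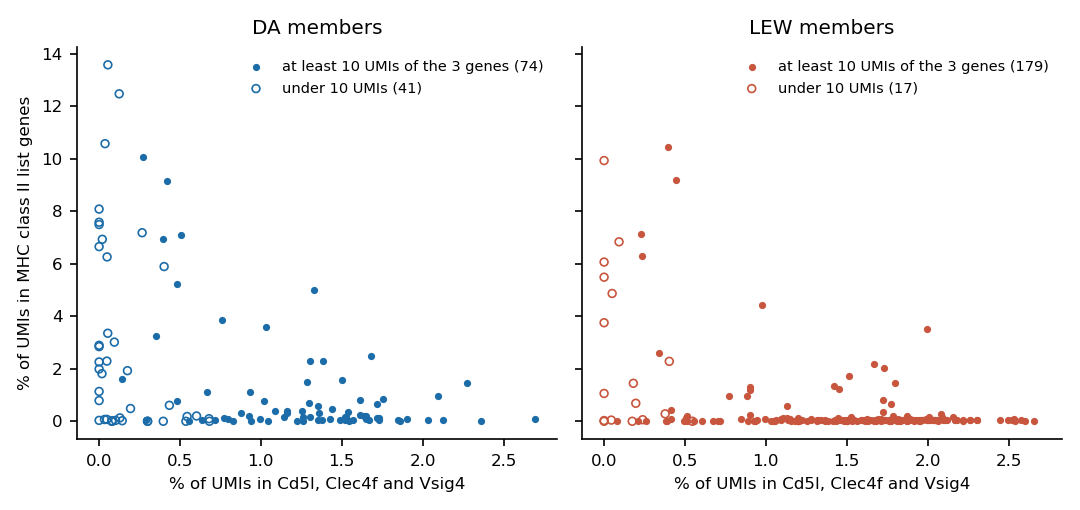
Each point is a member of the DA or LEW immune-enriched library, with the percentage of its UMIs in Cd5l, Clec4f and Vsig4 on the horizontal axis and in the MHC class II list on the vertical axis. The median MHC class II percentage is 1.14% (DA) and 1.06% (LEW) where fewer than 10 UMIs of the 3 genes were counted, and 0.189% and 0.0414% in the other members.

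Marco, a collagen-like scavenger receptor for bacteria and particles, was, outside the 6 rule genes, the gene farthest above the other kept barcodes and also among the most uneven within the members. A UMI of Marco was counted in 33 DA members (28.7%) and 100 LEW members (51.0%), with a highest count of 586 in DA and 959 in LEW. Of members with at least 10 UMIs of Cd5l, Clec4f and Vsig4, 44 of 74 in DA and 81 of 179 in LEW had no Marco UMI, 10 and 28 had 1 to 9, and 20 and 70 had at least 10. Those with at least 10 were deeper, at medians of 15379.5 and 16868 UMIs against 9524 and 11882. Cd5l stood at 6661 CPM in members with at least 10 Marco UMIs and 3744 CPM in those without any in DA, and at 6631 and 3952 CPM in LEW. MHC class II genes took 0.118% of the UMIs with Marco and 1.86% without it in DA, and 0.0775% and 0.493% in LEW. Clec4f differed less, at 5422 and 5293 CPM in DA and 6269 and 5221 CPM in LEW.

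The members were next set against the other kept barcodes. Of 8720 genes with at least 20 UMIs over both libraries' members, 1148 (13.2%) stood at least 2-fold higher in the members in both libraries and 507 (5.81%) at least 2-fold lower, with 10 CPM added to each side of the fold. The 25 genes farthest above in the library where the gap was smaller are described here by what they do. In log2, their gaps ran from 4.60 in DA and 4.36 in LEW for Siglec1 up to 8.31 in DA and 8.95 in LEW for Marco. These values say where the genes were counted. They were not tested, since the rule chose the same cells.

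Receptors of uptake were among them. Marco stood at 3714 CPM (3596 to 3834) in DA and 7071 CPM (6975 to 7168) in LEW members, against 1.72 and 4.31 CPM in the other barcodes. Cd163, which takes up haemoglobin bound to haptoglobin, stood at 631 CPM in DA and 667 CPM in LEW members against 1.03 and 0.485 CPM. After each member was thinned to 1000 UMIs, a UMI of Cd163 remained in 37.4% of DA and 39.8% of LEW members, against 0% and 0% of the hepatocyte-rich barcodes, and in the unthinned counts it was found in 63.5% and 86.2% of members. Hepatocyte-rich barcodes, at medians of 34221 UMIs in DA and 12221 in LEW, are given because they should lack these genes and so show the background. A count of 0 there allows a share of up to 1.66% of the 181 DA and 0.185% of the 1624 LEW barcodes, for counting error only. Siglec1, the sialic acid receptor of resident macrophages, stood at 247 CPM in DA and 198 CPM in LEW members, Folr2, the folate receptor beta, at 359 CPM in DA and 557 CPM in LEW, and Axl, a receptor for dying cells, at 609 CPM in DA and 562 CPM in LEW. All of them were at most 6.43 CPM in the other barcodes of DA, the level of Adgre1, which encodes the F4/80 antigen and stood at 591 CPM in DA and 658 CPM in LEW members. The endolysosomal glycoprotein Cd68 stood at 1580.4 CPM in DA and 1773 CPM in LEW members, against 27.7 and 8.01 CPM. Csf1r, the receptor for the growth factor these cells need, stood at 1354 CPM in DA and 1485 CPM in LEW, against 37.2 and 8.90 CPM.

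Secreted defence proteins formed the next group. Fcna, the lectin ficolin-A that starts the lectin pathway of complement, stood at 1718 CPM (1638 to 1801) in DA and 2442 CPM (2386 to 2499) in LEW members against 4.48 and 2.67 CPM. The thinned members held a UMI of it in 67.8% of DA and 84.2% of LEW members, with 0% and 0.493% of hepatocyte-rich barcodes. Properdin (Cfp), which holds the alternative pathway convertase together, stood at 1357 CPM in DA and 1343 CPM in LEW, and complement factor D (Cfd), its activating protease, at 1268 CPM in DA and 702 CPM in LEW. The chemokine Ccl6 was counted in 99.1% and 99.5% of members, at 5967 CPM in DA and 9952 CPM in LEW. The phospholipid transfer protein gene Pltp stood at 2117 CPM in DA and 1877 CPM in LEW, and the galectin Lgals3 at 1103 CPM in DA and 1182 CPM in LEW.

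Iron and eicosanoid genes and lysosomal proteins made up most of the rest. Hmox1, haem oxygenase, stood at 1626 CPM (1548 to 1706) in DA and 878 CPM (844 to 913) in LEW members, against 7.70 and 8.09 CPM in the others. Slc40a1, ferroportin, stood at 1277 CPM in DA and 1184 CPM in LEW, against 37.7 and 43.9 CPM, and Slc11a1, the phagosomal metal pump NRAMP1, at 430.2 CPM in DA and 462 CPM in LEW. Hpgds, which makes prostaglandin D2, stood at 520.2 CPM in DA and 478 CPM in LEW, and cyclooxygenase 1 (Ptgs1) at 537 CPM in DA and 674 CPM in LEW. The lysosomal protease Lgmn stood at 1344 CPM in DA and 1621 CPM in LEW and the cholesterol carrier Npc2 at 2742 CPM in DA and 2381 CPM in LEW. Anxa3, Aif1, Rarres1 and Lst1 complete the 25, at 1891 CPM in DA and 2729 CPM in LEW for the annexin Anxa3, 3676 CPM in DA and 3561 CPM in LEW for the macrophage calcium-binding protein Aif1, 2159 CPM in DA and 2434 CPM in LEW for Rarres1 and 894 CPM in DA and 804 CPM in LEW for Lst1. The LEW and DA members lay within 2-fold of each other for each of the 25 over all members, with Hmox1 (log2 ratio of LEW to DA -0.88) and Cfd (-0.84) at the DA end and Marco (0.93) at the LEW end. Among members with at least 10 UMIs of Cd5l, Clec4f and Vsig4, Hmox1 stood at 2036 CPM in DA and 894 CPM in LEW, past 2-fold on the DA side, though not when the members past the endothelial or mesenchymal limits were left out as well.

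**Figure D3:**
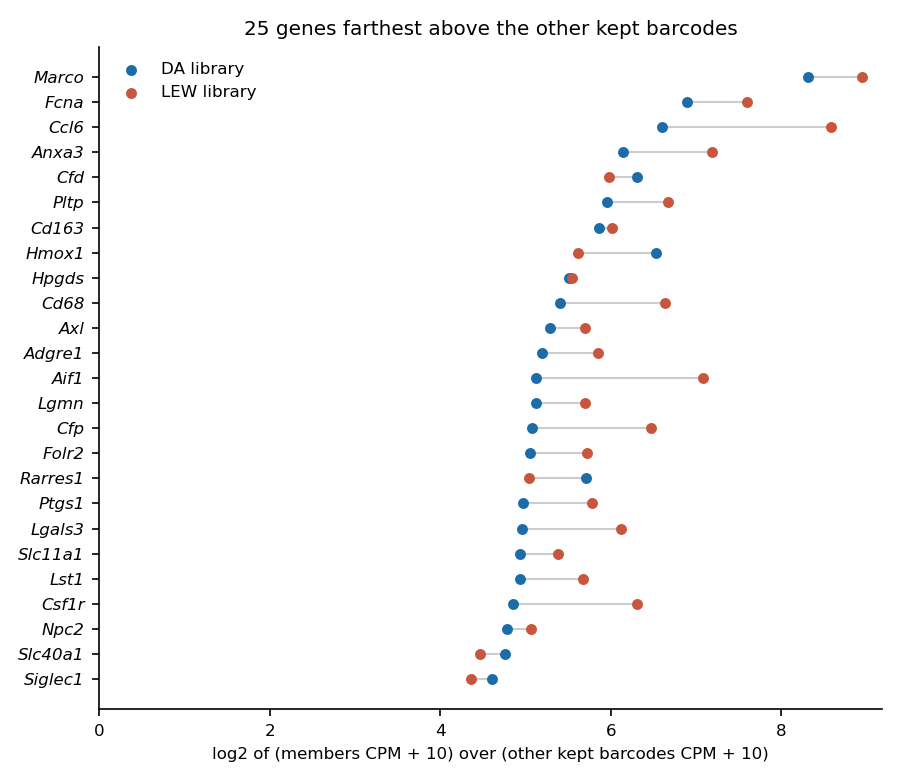
For the 25 genes farthest above the other kept barcodes, points give the log2 of member CPM over other-barcode CPM, with 10 CPM added to each, in the DA and LEW libraries. Marco is highest, at 8.31 in DA and 8.95 in LEW, and Siglec1 is at 4.60 in DA and 4.36 in LEW.

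The lists of genes by role showed the same profile, each read against the 13.2% of all counted genes that stood 2-fold higher in both libraries. Of the macrophage identity list 18 of 19 counted genes did so, with a median log2 gap of 5.05 in DA and 5.70 in LEW where that of all genes was 0.27 and 0.68. Complement genes went both ways. Of 17 counted, 10 were higher in members, of which 4 are rule genes and the others C2, Cfd, Cfp, C5ar1, C6 and Itgb2, while C3 and C1s were 2-fold lower in both libraries. C6, a terminal pathway component, stood at 946 CPM in DA and 846 CPM in LEW members against 19.5 and 34.0 CPM. C3, made mainly by hepatocytes, stood at 90.0 CPM in DA and 280.4 CPM in LEW members against 1423 and 2666 CPM in the others. Of scavenger and uptake receptors 15 of 18 were higher, Clec4f and Vsig4 of the rule among them, and of Fc receptors and adaptors with ITAM motifs 9 of 10. The adaptors Tyrobp and Fcer1g, through which activating receptors signal, stood at 3053 CPM in DA and 2387 CPM in LEW and at 2515 CPM in DA and 1993 CPM in LEW members.

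Lysosomal genes were higher for 21 of 27 counted. Saposin precursor Psap stood at 3541 CPM in DA and 3743 CPM in LEW members, the growth factor progranulin (Grn) at 2299 CPM in DA and 2522 CPM in LEW, and cathepsin H (Ctsh) at 1681 CPM in DA and 1787 CPM in LEW. Of the haem and iron list 11 of 15 were higher. Ferritin heavy chain Fth1 stood at 10867 CPM in DA and 12072 CPM in LEW members against 5203 and 4326 CPM, and light chain Ftl1 at 6097 CPM in DA and 4965 CPM in LEW. Biliverdin reductase A (Blvra), which acts after haem oxygenase, stood at 553 CPM in DA and 476 CPM in LEW, and the haem transporter Slc48a1 at 239 CPM in DA and 212 CPM in LEW. Spic, the factor that red pulp macrophages need for iron recycling, was counted in members at 45.5 CPM in DA and 24.2 CPM in LEW and at 0 in all other kept barcodes of both libraries. Lipid handling genes were higher for 9 of 17. The sterol pumps Abca1 and Abcg1 stood at 202 CPM in DA and 358 CPM in LEW for Abca1 and 119 CPM in DA and 126 CPM in LEW for Abcg1. Apoe, which hepatocytes also make, stood lower in members, at 2474 CPM in DA and 4233 CPM in LEW against 4450.0 and 7684 CPM.

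Of 22 transcription factors counted, 12 were 2-fold higher in members. Spi1 stood at 317 CPM (284 to 354) in DA and 319 CPM (299 to 340.4) in LEW members, against 27.1 and 3.88 CPM. Nr1h3 stood at 378 CPM in DA and 444 CPM in LEW against 49.0 and 61.4 CPM, and Id3 at 717 CPM in DA and 672 CPM in LEW against 264 and 88.5 CPM. All of these were above 2-fold in both libraries. Cebpb, an acute-response factor, stood at 1482 CPM in DA and 998 CPM in LEW members, against 372 and 218 CPM. Cebpa, of hepatocytes and granulocyte precursors, was the 1 factor 2-fold lower, at 29.7 CPM in DA and 19.1 CPM in LEW against 75.7 and 98.1 CPM.

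Several inflammatory cytokines were not detected at this depth. Il6, Tnf, Il12b and Ifnb1 had no UMI in any member of either library, which with 3 counts as the limit allows at most 3 UMIs in the 1011149 of DA and the 2934857 of LEW. Il1b stood at 90.0 CPM in DA and 149.9 CPM in LEW members, and Il18, the cytokine released by the inflammasome, at 287 CPM in DA and 273 CPM in LEW. Of the cytokine and inflammasome list 8 of 11 counted genes were 2-fold above the other barcodes, and of the interferon response list 13 of 25. Ifitm3, a restriction factor against viral entry, stood at 665 CPM in DA and 1198 CPM in LEW members against 318 and 309 CPM, and Slfn4, an interferon-induced gene of myeloid cells, at 642 CPM in DA and 912 CPM in LEW against 42.0 and 18 CPM. Of MHC class I and antigen processing genes 10 of 14 were 2-fold higher, and of MHC class II genes 7 of 8. Against the other kept barcodes with a UMI of Ptprc, the pan-leukocyte CD45 gene, class II genes stood lower in members, with Cd74 at 5889 CPM in DA and 940.1 CPM in LEW members against 6775 and 2592 CPM, and RT1-Da at 3574 CPM in DA and 644 CPM in LEW members against 4776 and 1785 CPM. Chemokines and their receptors were higher for 8 of 17 and immediate-early genes for 3 of 17. Proliferation genes were 2-fold higher for 0 of 9, with Mki67 at 16.8 CPM in DA and 16.4 CPM in LEW members.

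The hepatocyte background was low, but it differed between the libraries. All 17 counted hepatocyte marker rows were 2-fold lower in the members than in the others in both libraries. Summed over the list, 16 genes took 0.0877% of member UMIs in DA and 0.877% in LEW, against 5.48% and 11.9% in the other kept barcodes. In the cells that passed the rule in TLH the same share was 6.09% to 8.44%, and in the nuclei 3.98% to 6.77%. By the 2 limits of the member rule applied to the hepatocyte list, 8 DA members (6.96%) and 178 LEW members (90.8%) would pass. Over all members, the markers took at least 0.203% of the UMIs of every LEW member, and in DA a median of 0.0795%, from 0% to 1.26%. Its part in any difference between the strains was not tested, other than by a comparison without genes that are 5-fold higher in hepatocyte-rich barcodes, given below.

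Markers of other cells of the liver were counted in some members too. Endothelial markers passed the 2 limits in 16 DA and 57 LEW members and mesenchymal markers in 4 and 34. Together these were 18 DA and 60 LEW members. In LEW they were deeper, at a median of 19992 UMIs against 11821 for the rest, and in DA shallower, at 5282 against 10106. Endothelial markers took 0.115% of member UMIs in DA and 0.395% in LEW, with all 11 markers counted in both. Fcgr2b was left out of this share and of the endothelial limits, and with it the share was 0.133% in DA and 0.459% in LEW. Mesenchymal markers took 0.0831% in DA and 0.399% in LEW, with 10 of 11 counted and Col1a1 at 0. Erythroid markers passed in 1 DA and 12 LEW members, NK markers in 2 LEW members and B cell markers in 1 DA member. Markers of monocytes and neutrophils passed in 11 DA members and 1 LEW member, and S100a9, Vcan and Mmp8 were at 0 in DA and Vcan and Mmp8 in LEW. No member passed for T cells, plasmacytoid or conventional dendritic cells or cholangiocytes. The doublet caller Scrublet marked 0 DA and 4 LEW members, of 3 and 15 calls among all kept barcodes. Whether members with markers of other cells are doublets, cells stuck together or free RNA was not tested.

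Variation among the members, measured as the ratio of variance to mean after thinning to 1000 UMIs, was highest for haemoglobin genes. The haemoglobin genes had a ratio of 341 in DA and 132 in LEW for LOC689064, and the highest member had 41.6% of its UMIs in erythroid markers in DA and 24.5% in LEW. Slpi, a secreted protease inhibitor of granulocytes and epithelia, followed at 31.7 and 66.1, with a UMI in 14.8% of DA and 8.16% of LEW members before thinning. Marco had ratios of 19.1 and 21.9 and Cd74 of 16.8 and 15.4. RT1-Da and RT1-Db1, the rat MHC class II chains, had ratios of 11.9 and 11.5 and of 11.4 and 14.6. The haemoglobin gene Hba-a2, the mitochondrial transcripts Mt-co1, Mt-co2 and Mt-atp6 and the gene AY172581.24 made up the rest of the 12 rows. A gene carried by every member at an even level would be near 1.

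The LEW and DA members were then set side by side. Of the 8720 genes, 605 (6.94%) were at least 2-fold higher in LEW and 81 (0.929%) in DA, and the median log2 ratio of LEW to DA was 0.17. Setting the median ratio of the libraries, 1.07, to 1 gave 536 and 91. Without the members that passed the endothelial or mesenchymal limits the counts were 267 and 83 of 6880 genes, and among members with at least 10 UMIs of Cd5l, Clec4f and Vsig4 they were 684 and 50 of 8549. Without genes 5-fold higher in hepatocyte-rich barcodes they were 373 and 79 of 8147. Fewer members or genes also change which genes pass the limit on UMIs, and the part of other cells' RNA in the LEW-side count was not tested. That limit was on both libraries together, and LEW members held 2934857 UMIs against 1011149 in DA. A gene counted in LEW alone thus entered at a lower CPM than one counted in DA alone. The part of this in the counts was not tested. With at least 100 UMIs over both libraries the counts were 389 and 44 of 4493. No p can be given for any gene of this comparison, since each strain has 1 library.

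The genes that stood farthest on the LEW side, among those also 2-fold above the other barcodes in LEW, were led by Itgal, the alpha chain of the integrin LFA-1. It stood at 19.8 CPM (12.1 to 30.5) in DA and 268 CPM (250.1 to 288) in LEW members, a ratio of 13.6-fold (interval 8.73 to 22.3) in counting terms. In the other kept barcodes with a UMI of Ptprc, Itgal stood at 26.3 CPM in DA and 170 CPM in LEW, so this order was not particular to the members. A UMI of Itgal was found in 15.7% and 87.8% of members, and after thinning in 0.870% of DA and 22.4% of LEW members, with 0% and 0.185% in hepatocyte-rich barcodes. The next 11 were Lrat, Nid1, Flt1, Col3a1, Ets1, Angptl6, Pth1r, Ptprb, Igfbp7, Bmp5 and Bgn. Lrat, which stores retinol as esters, is a gene of stellate cells and stood at 21.8 CPM in DA and 213 CPM in LEW members, Flt1, a VEGF receptor, is one of endothelial cells and stood at 23.7 CPM in DA and 201 CPM in LEW, and the fibrillar collagen Col3a1 stood at 141 CPM in DA and 903 CPM in LEW. When the members past the endothelial or mesenchymal limits were left out, the log2 ratio of LEW to DA became 0.38 for Lrat, 0.43 for Flt1 and 0.27 for Col3a1, and that of Itgal was 3.61. Only Itgal of these 12 was still past 2-fold. Lrat, Col3a1, Bgn and Ptprb are themselves among the markers that set those limits, so their fall was built into the choice. Genes carried mainly by the members left out would fall with them, so the fall of the others, Flt1 among them, is not a separate result.

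On the DA side, by the same limits, the order was Ly6al, RGD1562667, Ubd, Lyz2, RT1-Ba, Cxcl2, Clec10a, Siglec5, RT1-A2, Prg4, Cd74 and RT1-Db1. Ly6al, a member of the Ly6 family of surface proteins, stood at 404 CPM (366 to 446) in DA members and at 0 in LEW, at least 396-fold higher against the limit of 3 counts over the LEW members. It was found in 28.7% of DA members. Ubd, the ubiquitin-like protein FAT10, was likewise at 0 in LEW and at 108 CPM in DA, at least 105-fold higher, but hepatocyte-rich DA barcodes held 34.8 CPM of it. A UMI of Ubd was found in 6.09% of DA members, so most lacked it. After thinning it was found in 2.61% of DA members and in 5.52% of hepatocyte-rich DA barcodes. RGD1562667 had 163 UMIs in DA and 2 in LEW members, a ratio of 237-fold (interval 64.4 to 1969.8). In the other kept barcodes with a UMI of Ptprc it stood at 85.7 CPM in DA and 10.5 CPM in LEW. Siglec5, a sialic acid receptor with inhibitory motifs, stood at 168 CPM (144 to 195) in DA and 15.7 CPM (11.5 to 20.9) in LEW members, a ratio of 10.7-fold (interval 7.70 to 15.2). Under the limit on other cells' markers and under that on Cd5l, Clec4f and Vsig4 these 4 genes stayed past 2-fold, as the plot of the named folds under 3 sets of members shows.

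Of the other DA-side genes, Cd74, RT1-Ba and RT1-Db1 belong to MHC class II. Cd74 stood at 5889 CPM (5741 to 6041) in DA and 940.1 CPM (905 to 976) in LEW members, RT1-Ba at 1956 CPM in DA and 239 CPM in LEW and RT1-Db1 at 3760.1 CPM in DA and 629.7 CPM in LEW. Of the 8 counted genes of the MHC class II list 5 were 2-fold higher in DA, and the median log2 ratio of LEW to DA was -2.46. It was -1.85 among members with at least 10 UMIs of the Kupffer genes and -1.35 when the members past the endothelial or mesenchymal limits were left out as well, closer to 0 under each limit. Under each of these sets of limits 5 of 8 were 2-fold higher in DA, and under the last the log2 ratio was -1.73 for Cd74, -2.05 for RT1-Ba and -1.41 for RT1-Db1. Markers of monocytes and neutrophils moved the same way, at 0.298% of member UMIs in DA and 0.114% in LEW, with 4 of 6 counted 2-fold higher in DA. Without the members past the limits for any other list but hepatocyte, 0 of 3 of these were. The monocyte and neutrophil limits were among those applied, so this fall was built into the choice. In the same set 5 of 8 MHC class II genes were 2-fold higher in DA, at a median of -1.84. Lyz2 stood at 1347 CPM (1276 to 1420.5) in DA and 124 CPM (112 to 138) in LEW, and with both limits its log2 ratio went from -3.34 to -0.41. Cxcl2, which draws neutrophils, went from -2.92 to -0.82, and Prg4, lubricin, from -2.73 to 0.28. Clec10a, a galactose-type lectin of macrophages and dendritic cells, stood at 170.1 CPM in DA and 14 CPM in LEW members and stayed past 2-fold at -2.01. In the other kept barcodes with a UMI of Ptprc, Cd74 stood at 6775 CPM in DA and 2592 CPM in LEW. RT1-Ba stood there at 2407 and 830 CPM and Clec10a at 132 and 27.4 CPM, also higher in DA. Lyz2, at 1936 and 2472 CPM, and Cxcl2, at 22.9 and 48.9 CPM, were higher in LEW there. RT1-A2, an MHC class I gene, stood at 869 CPM in DA and 121 CPM in LEW members. RT1 genes have near-identical copies and the strains carry different RT1 haplotypes, so counts assigned to 1 RT1 gene are uncertain. Libraries of both strains were aligned to the same rat reference. For genes outside RT1, Ly6al, Ubd and Itgal included, whether sequence differences between the strains changed the counts was not tested.

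**Figure D4:**
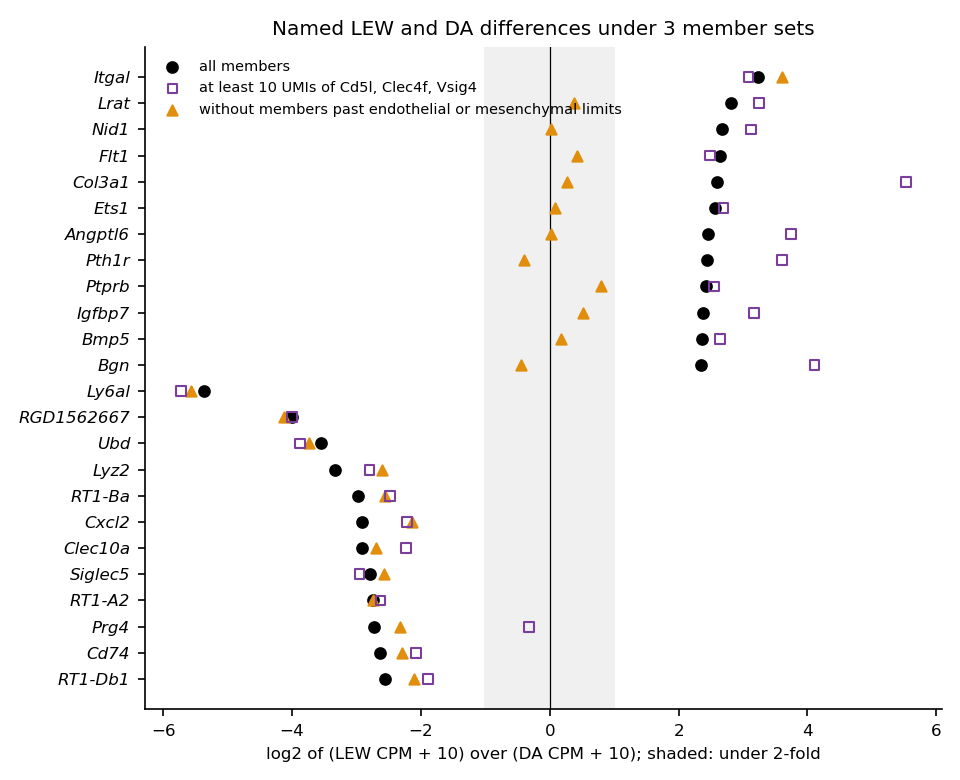
For the 24 genes named by strain, points give the log2 ratio of LEW to DA CPM, with 10 CPM added to each, in all members, in members with at least 10 UMIs of Cd5l, Clec4f and Vsig4, and without members past the endothelial or mesenchymal limits. Of the 12 genes on the LEW side, Itgal alone stays outside the shaded 2-fold band in the third set, while all 12 on the DA side do.

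Most lists by role had few genes past 2-fold between the LEW and DA members, to be read against the 6.94% of all genes past it on the LEW side and the 0.929% on the DA side. A list with 1 gene on the LEW side lies near that background. The rule genes, haem and iron, cytokine and proliferation lists had 0 genes past 2-fold in either direction over all members, with medians of 0.25, -0.04, -0.07 and 0.0022. Members of both libraries had to hold the rule genes to enter, so the likeness of these genes was partly set by the choice. Among members with at least 10 UMIs of the Kupffer genes 1 of 15 haem and iron genes, Hmox1, was 2-fold higher in DA, and with the endothelial and mesenchymal limits as well 0 were. Over all members the largest departures were those of Hmox1, at -0.88, and of the interleukin 1 antagonist Il1rn, at -0.88. Past 2-fold were 1 of 27 lysosomal genes and 1 of 10 Fc receptors and adaptors, both on the LEW side, 3 of 18 scavenger receptors on the DA side, and of lipid genes 2 of 17 on each side. Gpnmb, a glycoprotein of lipid-loaded macrophages, stood at 415 CPM in DA and 171 CPM in LEW members, on the DA side. Of 17 complement genes 3 were past 2-fold on the LEW side and 0 on the DA side. Of 14 MHC class I genes 3 were past 2-fold on the LEW side and 1, RT1-A2, on the DA side. Chemokines went both ways, with 6 of 17 2-fold higher in each strain. Among members with at least 10 UMIs of the Kupffer genes the counts were 6 of 15 higher in LEW and 3 in DA, and with the endothelial and mesenchymal limits as well 6 of 14 and 1. On the DA side in all members were Cxcl2, Ccl24, Ccl2, Pf4, Cxcl1 and Ccl7, with Ccl24, an eotaxin, at 399 CPM in DA and 85.9 CPM in LEW members. On the LEW side in all members were Ccl5, Cxcl12, Ccl9, Cxcl10, Ccl4 and Cxcl16, of which Ccl5, a gene of NK and T cells, stood at 3.96 CPM in DA and 94.7 CPM in LEW members against 2869 and 317 CPM in the other barcodes. A UMI of Ccl5 was found in 3.48% of DA and 7.65% of LEW members, so a few members carried its level. Without the members past the limits for any other list but hepatocyte, 4 of 13 chemokines were higher in LEW and 1 in DA. The immediate-early and dissociation list had 6 of 17 genes higher in DA, led by Fos at 296 CPM in DA and 45.0 CPM in LEW, and 0 in LEW. Among members with at least 10 UMIs of the Kupffer genes 1 of the 16 counted was past 2-fold. The interferon list had 1 of 25 past 2-fold, the antiviral gene Ifit2, at 62.3 CPM in DA and 164 CPM in LEW.

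Replicated libraries allowed a test that the immune-enriched pair did not. TLH cells that passed the same rule, 1791 in 4 libraries, and nuclei that passed it at 3 UMIs, 203 in 4 libraries, were summed per library and compared by strain with the quasi-likelihood test of edgeR, with Benjamini-Hochberg adjustment over all genes tested. In TLH, 196 of 7141 genes (2.74%) were higher in LEW and 237 (3.32%) in DA at an adjusted p under 0.05, 6.06% in all. In the nuclei, 41 of 1738 (2.36%) were higher in LEW and 16 (0.921%) in DA, 3.28% in all. On simulated counts the nuclei fit found 1.16% of 2-fold changes, against 64.6% for TLH, so a gene not called in the nuclei may still differ. Each fit had 2 rats a strain, and the immune-enriched libraries entered neither. With the LEW TLH cells kept at the 1500 UMIs that the study states, in place of 2000, 133 of 7633 genes (1.74%) were higher in LEW and 130 (1.70%) in DA, and 240 of the 433 calls remained. A fit that leaves out 1 library has 1 rat in that strain, which is assumed to vary like the pair of the other strain, so its calls compare that rat with a pair and carry less weight than those of 2 rats a strain. The counts moved in such fits: without TLH DA-1 there were 855 and without LEW-1 216, and in the nuclei 18 without DA-1, 31 without DA-2 and 202 without LEW-2. In sums over cells, fewer cells of a kind and less RNA per cell cannot be told apart.

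Of the 12 genes on the LEW side, 11 were tested in TLH and 1, Itgal, was called. Itgal stood at 0 and 0.925 CPM in the DA and 180.1 and 134 CPM in the LEW TLH libraries (adjusted p = 1.17e-08), and at 17.0 and 32.8 CPM in the DA and 322 and 308 CPM in the LEW libraries of nuclei (adjusted p = 0.0031), with the strains apart in both. The other 10 were not called, and Nid1 had too few counts to be tested. Their fitted log2 fold changes in TLH all lay on the DA side, against the order in the immune-enriched members. Col3a1 stood at 110.3 and 160.5 CPM in the DA and 80.2 and 94.5 CPM in the LEW TLH libraries (log2 fold change -0.67, SE 0.20, adjusted p = 0.064), and the value for Lrat was -0.89 (adjusted p = 0.075). These values depended on which DA library was held. Without the TLH library DA-1, which leaves 1 DA rat, Pth1r, a receptor for parathyroid hormone, was at a log2 fold change of -1.31. Without DA-2, again with 1 DA rat, Flt1 (0.79), Ets1 (0.91), Angptl6 (0.039) and Ptprb (0.35) turned to the LEW side, and the rest of the 10 stayed on the DA side.

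Of the 12 genes on the DA side, 11 were tested in TLH, and Ly6al, RGD1562667, Ubd and Siglec5 were called higher in DA. Ly6al stood at 239 and 259.9 CPM in the DA and 0 and 0.859 CPM in the LEW TLH libraries (adjusted p = 3.77e-09) and at 289 and 120.1 CPM in the DA and 0 and 0 CPM in the LEW libraries of nuclei (adjusted p = 0.014). Ubd stood at 196 and 206 CPM in the DA and 0 and 0 CPM in the LEW TLH libraries (adjusted p = 6.71e-09), and RGD1562667 at 42.9 and 41.6 CPM in the DA and 0.854 and 0 CPM in the LEW TLH libraries (adjusted p = 6.55e-06). Siglec5 stood at 48.8 and 66.1 CPM in the DA and 7.68 and 6.88 CPM in the LEW TLH libraries (log2 fold change -3.02, SE 0.30, adjusted p = 2.10e-05) and was called in the nuclei too (adjusted p = 0.042), though not without nuclei DA-2 (0.33) or LEW-1 (0.27). RT1-A2 missed the threshold in TLH (adjusted p = 0.077) and passed it without any of DA-1, DA-2 and LEW-2, each a fit with 1 rat in a strain. It passed in the nuclei, at 511 and 863 CPM in the DA and 186 and 137 CPM in the LEW libraries of nuclei (adjusted p = 0.013), though not without DA-2 (0.15). Clec10a, at -1.14 in TLH (adjusted p = 0.093), passed without DA-2 or LEW-2, again with 1 rat in a strain.

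Lyz2 went the other way. In TLH it stood at 63.4 and 56.9 CPM in the DA and 147 and 156 CPM in the LEW TLH libraries (log2 fold change 1.31, SE 0.18, adjusted p = 5.46e-04), higher in LEW, where the immune-enriched members had it 2-fold or more higher in DA. The difference between the kinds of library was not tested. Cd74 stood at 1499 and 1257 CPM in the DA and 731 and 1533 CPM in the LEW TLH libraries, with overlapping strains (adjusted p = 0.79). Without LEW-2, with 1 LEW rat and the spread taken from the DA pair, it was called higher in DA (adjusted p = 0.018), and without LEW-1 its sign turned, to a log2 fold change of 0.17. Of the MHC class II list 0 of 7 tested genes were called in TLH and 0 of 5 in the nuclei, where 5 of 8 had been past 2-fold in the immune-enriched members. In TLH the MHC class II list took 0.322% and 0.273% of the UMIs of DA and 0.195% and 0.444% of those of LEW rule-passing cells, and in the immune-enriched members 1.72% and 0.304%. In TLH the highest and the lowest share were both of LEW.

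**Figure D5:**
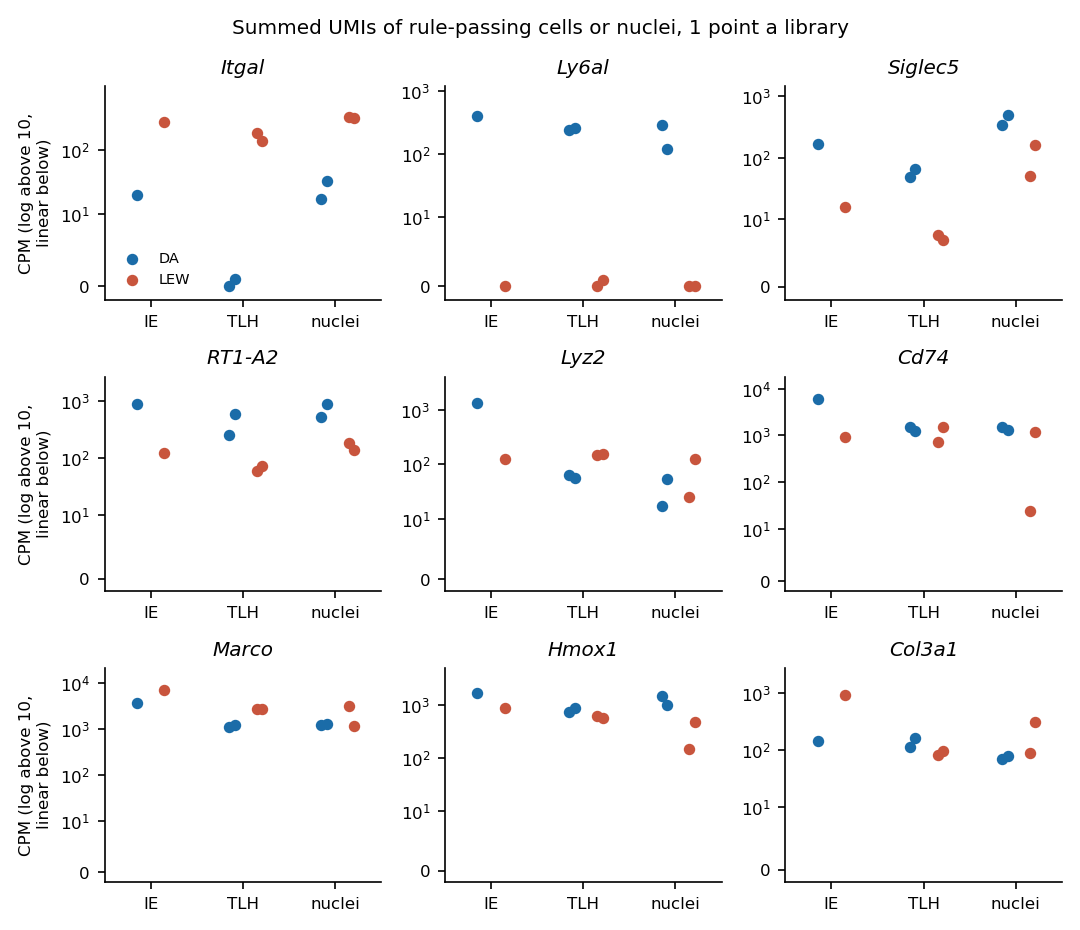
Each point is 1 library, with the CPM of a gene summed over its rule-passing cells or nuclei, linear below 10 and logarithmic above, in immune-enriched (IE), TLH and nuclei libraries of DA and LEW. Itgal, Ly6al and Siglec5 keep the strains apart in every kind of library, Lyz2 changes its order between IE and TLH, and Cd74 overlaps between the strains in TLH.

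The 25 genes that set the members apart were also read in these fits. In TLH, 10 of 25 were higher in LEW and 0 in DA: Marco, Fcna, Ccl6, Anxa3, Cd68, Aif1, Folr2, Rarres1, Lgals3 and Lst1. Marco stood at 1087 and 1220 CPM in the DA and 2714 and 2732 CPM in the LEW TLH libraries (log2 fold change 1.21, SE 0.16, adjusted p = 4.33e-04), and among cells with at least 10 UMIs of the Kupffer genes its log2 fold change was 0.86 (adjusted p = 0.0065). Ccl6 stood at 2998 and 2921 CPM in the DA and 10009 and 8651 CPM in the LEW TLH libraries (log2 fold change 1.62, SE 0.17, adjusted p = 2.61e-05). In that fit, where 2.02% of 6739 genes were called higher in LEW and 2.85% in DA, all 10 were called, with Fcna at the weakest p (adjusted p = 0.043). With LEW cells at 1500 UMIs 8 of the 10 were called, without Aif1 (adjusted p = 0.062) and Lst1 (adjusted p = 0.051), and Hmox1 was called higher in DA. In the immune-enriched members the log2 ratio was 0.93 for Marco, 0.74 for Ccl6 and between -0.15 and 0.62 for the other 8, and none was past 2-fold. In the nuclei 0 of 23 tested were higher in LEW, and Hmox1 and Slc40a1 were higher in DA. The nuclei fit found few simulated 2-fold changes, so the lack of calls there says little of changes of that size. Hmox1 stood at 1429.9 and 1005 CPM in the DA and 148 and 467 CPM in the LEW libraries of nuclei (adjusted p = 0.038), and at 1626 CPM in DA and 878 CPM in LEW immune-enriched members.

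The rule genes themselves are given here as levels, with no test, because a cell had to hold them to enter. C1qa stood at 3668 and 3949 CPM in the DA and 6175 and 6184 CPM in the LEW TLH libraries, and the cells of LEW-1 and LEW-2 held 87.5 and 76 rule UMIs in the median against 28 and 47 in DA-1 and DA-2.

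Counts of list members called in TLH are to be read against the 2.74% of all genes called higher in LEW and the 3.32% in DA. Of the macrophage identity list 7 of 19 were higher in LEW and 0 in DA, namely Marco, Cd68, Aif1, Folr2, Lyz2, Fcna and Ptprc, and with LEW cells at 1500 UMIs 5 of the 7 calls remained. Of MHC class I genes 4 of 12 were higher in LEW and 1 in DA, and at 1500 UMIs 3 and 1 of 13. Chemokines were higher in LEW for 4 of 13, Ccl3, Ccl4, Ccl6 and Cxcl16, and in DA for 0, and at 1500 UMIs for 3 of 14 and 0. Of Fc receptors and adaptors Fcer1g, Fcgr2a and Fcgr3a were higher in LEW, 3 of 10, and 0 at 1500 UMIs. With LEW cells at 1500 UMIs the counts of the interferon, immediate-early and lipid lists given here were the same, and Casp1 and Il1rn were no longer called. Of interferon response genes 5 of 23 were higher in LEW, among them Slfn4 at 488 and 609 CPM in the DA and 1806 and 1317 CPM in the LEW TLH libraries (adjusted p = 1.82e-04) and Gbp2, a guanylate-binding protein, at 55.6 and 68.4 CPM in the DA and 184 and 172 CPM in the LEW TLH libraries (adjusted p = 1.45e-04). In the nuclei Slfn4 was not called (adjusted p = 0.23). Of cytokine genes Il18, its inhibitor Il18bp and Casp1 were higher in LEW and Il1rn in DA. Of immediate-early genes 6 of 16 were higher in DA and 0 in LEW, with Fos at 98.6 and 163 CPM in the DA and 21.3 and 32.7 CPM in the LEW TLH libraries (log2 fold change -2.33, SE 0.29, adjusted p = 0.0017) and Btg2 at 125 and 183 CPM in the DA and 55.5 and 67.9 CPM in the LEW TLH libraries (log2 fold change -1.36, SE 0.21, adjusted p = 0.0017). The lipid and lysosome-related genes Acp5 and Gpnmb were higher in DA. Acp5, tartrate-resistant acid phosphatase, stood at 253 and 247 CPM in the DA and 107 and 162 CPM in the LEW TLH libraries (adjusted p = 0.017), at 357 and 339 CPM in the DA and 49.5 and 79.8 CPM in the LEW libraries of nuclei (adjusted p = 0.014) and at 718 CPM in DA and 330.2 CPM in LEW immune-enriched members.

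The study had named 7 myeloid genes as higher in LEW and 4 as higher in DA on these same libraries, so their direction here is not independent evidence. In TLH 7 of 7 of the first were called higher in LEW and in the nuclei 3 of 5 tested, and 4 of 7 were past 2-fold in the immune-enriched members, namely Itgal, RT1-A1, RT1-T24-3 and Lilrb3l. Timp2, an inhibitor of matrix proteases, was at a log2 ratio of 0.92 there, Il18 at -0.07 and the chemokine Ccl3 at -0.20. Of the second, Ly6al and Siglec5 were past 2-fold, Hmox1 was at -0.88 and Cd163 was at 0.08. Among members with at least 10 UMIs of the Kupffer genes 3 of 4 were past 2-fold, with Hmox1, and with the endothelial and mesenchymal limits as well 2 of 4. Hmox1 and Cd163 were not called in TLH, and Hmox1 was called in the nuclei and with LEW cells at 1500 UMIs as above.

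A joint fit of the 4 TLH and the 2 immune-enriched libraries, with the platform as a term, set 3 libraries against 3. It called 25 of 7234 genes (0.346%), 11 higher in LEW (0.152%) and 14 in DA (0.194%). The labels do not say whether the immune-enriched libraries came from rats other than those of TLH, and the fit assumed that they did. Itgal was not among them (adjusted p = 0.085). Ly6al stood at 239, 259.9 and 404 CPM in DA and 0, 0.859 and 0 CPM in LEW (adjusted p = 2.96e-04), the TLH libraries first. Siglec5 stood at 48.8, 66.1 and 168 CPM in DA and 7.68, 6.88 and 15.7 CPM in LEW (adjusted p = 0.0014), and Htra4, a secreted serine protease, at 27.3, 20.3 and 77.1 CPM in DA and 0.854, 1.72 and 6.13 CPM in LEW (adjusted p = 0.0039). Fos, at 98.6, 163 and 296 CPM in DA and 21.3, 32.7 and 45.0 CPM in LEW (adjusted p = 0.017), and Btg2 were also higher in DA. On the LEW side, LOC100360791 stood at 0.976, 0.462 and 0.989 CPM in DA and 67.4, 97.1 and 211 CPM in LEW (adjusted p = 2.96e-04), the inhibitory receptor gene Lilrb3l at 4.88, 7.86 and 20.8 CPM in DA and 58.1, 68.8 and 78.0 CPM in LEW (adjusted p = 0.038) and Slc16a10, an aromatic amino acid transporter, at 13.7, 11.6 and 15.8 CPM in DA and 47.0, 42.1 and 45.7 CPM in LEW (adjusted p = 0.042). The remaining LEW-side genes were RT1-T24-3, RT1-CE5, RT1-N2, Blk, Ephx2, Rps4y2, AC114233.2 and Ybx1-ps3. On the DA side they were Mpped1, Ubd, RGD1562667, RT1-A2, Cdkn1a, Cryz, AC135826.1, AY172581.9 and AABR07005837.2. Not all of the 25 were genes of the members: Ephx2, Cdkn1a, Cryz and AY172581.9 stood lower in the members than in the other kept barcodes of both immune-enriched libraries, and LOC100360791 stood at log2 gaps of 0.040 in DA and 0.70 in LEW.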

How the data were processed

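Liver cells and nuclei of DA and LEW rats were read as single-cell 3′ libraries. The authors aligned them with Cell Ranger 3.1.0 to a custom rat reference (Rattus_norvegicus.custom_6.0.98) and deposited matrices of UMI counts per gene and barcode, whole numbers with no normalization, whose lowest immune-enriched barcodes held 588 (DA) and 500 (LEW) UMIs. The immune-enriched and TLH matrices were read without gene or barcode names of their own. Their 32883 rows were named by the gene table deposited with the nuclei, on the assumption of the same order, on which every gene value of these libraries rests. Across genes, row totals had a Spearman correlation with those of the first DA library of nuclei of 0.875 to 0.902, and of -0.156 to -0.123 when shifted by 1 row. Without barcode names, barcodes shared between them could not be counted. No pair of kept barcodes held identical counts. The kit is version 3 per the labels' description, whereas their extract protocol names the earlier one. The authors sought doublets with scDblFinder and left them in.

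The members and gene lists were chosen with earlier results of these data known. Of 371 listed genes 357 were found by symbol. Genes were named by the following rule. Against the other kept barcodes, they were the 25 genes with the largest log2 fold in the library where it was smaller, outside the 6 rule genes and with a UMI in at least 10% of members of both libraries. Between strains, they were the 12 genes a side with the largest log2 fold among those 2-fold above the other barcodes where higher. For variation, they were the 12 genes with the largest ratio of variance to mean after thinning, with a UMI in at least 5% of members. Other genes named from the lists were chosen after their values were seen. Folds used 10 CPM added to each side and genes with at least 20 UMIs over both libraries' members. Hepatocyte-rich barcodes were kept barcodes with at least 5% of their UMIs in the hepatocyte list. Thinning drew 1000 UMIs a barcode without replacement, so every kept barcode could enter. Doublets were sought with Scrublet in scanpy 1.11.5 and left in.

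TLH cells were kept at 1500 UMIs and 30% mitochondrial UMIs for DA-1, 2000 and 20% for DA-2, and 2000 and 40% for LEW. These are the limits that the study states except for LEW, where it states 1500 UMIs, which was run as an alternative. At 2000 UMIs the LEW libraries kept 5457 and 3844 cells, which are also among the cell numbers per sample that the study gives. Nuclei were kept at 1000 UMIs and 10%, with the rule at 3 UMIs. Sums per library were tested with edgeR 4.0.16 (TMM scaling, quasi-likelihood fit, two-sided, Benjamini-Hochberg adjustment, threshold 0.05), each strain with 2 rats. On simulated counts the TLH fit found 97.9% of 4-fold and 64.6% of 2-fold changes (6906 genes), and the nuclei fit 85.4% and 1.16% (1514 genes). Of the genes called there, 5.49% and 1.39% had not been changed. DESeq2 1.42.0, other limits, scalings and library sets were alternatives. Promoter windows are those of RefSeq on GRCr8, a later build than the counts, and no coordinates were carried between the builds. No column of per-sample values was left unused in the matrices read, and the spatial sections were not analysed here.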

Additional observations from a re-analysis of the deposited data

How the results depend on the processing

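The immune-enriched pair has 1 library a strain, so its values have counting intervals and no test, and depth limits the shallow DA members most. Limits on the Kupffer genes or on other cells' markers, on depth, and on hepatocyte-rich genes, the LEW limit of 1500 UMIs and the crossed block were chosen after seeing the data. No paired analysis was possible because each immune-enriched group holds a single library. In TLH and nuclei the shared numbers did not pair the rats (correlation of deviations -0.118 and 0.060). With the replicate block TLH gave 473 calls and nuclei 119, and with the TLH numbers crossed 442. The causes of the changes below were not tested beyond what each limit removes.

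Between the LEW and DA members, 686 genes past 2-fold became 1568 with 1 CPM added, 185 with 50 CPM, 433 with at least 100 UMIs, 350 without members past the endothelial or mesenchymal limits, 326 when at least 10 Kupffer gene UMIs were asked for as well, 321 without members past any other list but hepatocyte, and 452 without hepatocyte-rich genes. In those 3 sets of members in turn, Pth1r turned to -0.40, -0.41 and -0.43 and Bgn to -0.44, -0.61 and -0.55. Nid1 (-0.019) and Angptl6 (-0.0079) turned in the second, Ets1 (-0.18) in the last, and Prg4 in the last 2 (0.28 and 0.19).

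Members in DA fell to 89 at 2000 UMIs, 73 at 20% mitochondrial and 74 at 10 Kupffer gene UMIs. The hepatocyte share in DA became 0.0800% at 20 UMIs and 0.6%, 0.0720% at 2000 UMIs and 0.0775% at 10 Kupffer gene UMIs. In LEW it became 0.746%, 0.848% and 0.829% under the same limits and 0.831% without Scrublet calls. Genes 2-fold above the other barcodes numbered 567 by mean CPM per cell, 2071 with 1 CPM, 434 with 50 CPM and 667 against barcodes with a Ptprc UMI. 

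TLH calls were 168 by DESeq2, 748 with no filter, 263 with LEW at 1500 UMIs, 270 at the limits of the immune-enriched libraries, 25 with those libraries added, and 216 (without LEW-1) to 855 (without DA-1) with a library left out. Nuclei calls were 14 by DESeq2, 37 at 5 UMIs, and 18 (without DA-1) to 202 (without LEW-2). In TLH, the sign turned with the immune-enriched libraries added for Lrat (0.37), Flt1 (0.91), Col3a1 (0.35), Ets1 (0.92), Angptl6 (0.36), Pth1r (0.18), Ptprb (0.76), Igfbp7 (0.20), Bmp5 (0.55), Bgn (0.24), Lyz2 (-0.13), RT1-Ba (-0.85), Prg4 (-1.69) and RT1-Db1 (-0.51). Without TLH DA-2 it turned for Flt1 (leave-one-out range -0.69 to 0.79), Ets1 (-0.49 to 0.91), Angptl6 (-1.05 to 0.039) and Ptprb (-1.04 to 0.35), without LEW-2 for Ets1 (0.041), RT1-Ba (-0.57 to 0.70) and RT1-Db1 (-0.49 to 1.07), and without LEW-1 for Cd74 (-0.98 to 0.17). Ets1 also turned by DESeq2 (0.018), under the block (0.056) and crossed block (0.018) and at 20 UMIs (0.14). Angptl6 turned without cells past the endothelial or mesenchymal limits (0.11). RT1-Ba turned at the limits of the immune-enriched libraries (-0.0011) and at 10 Kupffer gene UMIs (-0.10), Prg4 at the latter (-0.090), and RT1-Ba in the nuclei without LEW-1 (-3.28 to 0.23). Itgal, Ly6al, RGD1562667, Ubd, Siglec5 and Lyz2 stayed called in TLH under every alternative run except Itgal and Lyz2 with the immune-enriched libraries added.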
